A study of Drosophila melanogaster with 3 samples.

Results

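Glycolysis genes were examined in a map of tap binding in Drosophila melanogaster embryos. The 10 genes were Pgi, Pfk, Ald1, Tpi, Gapdh1, Gapdh2, Pgk, Pglym78, Eno and Ldh, out of 13945 protein-coding genes. They were chosen by enzyme, with the ranks of their peaks in the same lists already known, so the peak values below are a description and carry no test. All 10 symbols were found in the annotation. A peak belonged to a gene when the gene's transcription start site (TSS) was the nearest protein-coding TSS to the peak's summit, and its rank was its place by signal in its list, with rank 1 the strongest.

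Glycolysis splits glucose into pyruvate in a chain of enzymes, most of which also work in reverse when sugar is made, and lactate dehydrogenase turns pyruvate into lactate. In Drosophila embryos the estrogen-related receptor ERR is known to raise many of these genes in mid-embryogenesis. The factor mapped here, tap, is a basic helix-loop-helix protein of the neurogenin family, and proteins of this class bind E-boxes, written CANNTG.

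The samples formed 1 group of 3 biological replicates. Each was a pool of whole embryos of both sexes aged 6 to 16 h, from a transgenic line that stably expressed tap with eGFP at its C-terminus. Chromatin was recovered with an antibody against GFP, so the values describe the tagged protein in all tissues together. Values of the control were not used here. There was no second genotype, age or treatment to compare. The lists held 30000 peaks for each replicate, 30000 for the pooled replicates and 4336 in a thresholded set, which are the strongest of the pooled list. No read counts were given, so depth is unknown. Replicate 3 stood apart: 67.2% of the thresholded peaks were matched among its strongest 4336, against 82.9% in replicate 1 and 81.3% in replicate 2, and results that rest on replicate 3 are named as such.

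Of the 10 genes, 4 had a thresholded peak, Gapdh2, Pgk, Eno and Ldh, with 7 peaks between them. Over all protein-coding genes the share was 18.9%. All 7 summits lay within 500 bp of a TSS of their gene, a criterion met by 13.9% of all genes. The genes were chosen with these values known, so nothing is read from the excess. The DNA under the leading peak of each of these 4 genes is printed below from the RefSeq copy of the assembly, dm6, 5′ to 3′ on the gene's strand. Capitals mark E-boxes. Each run is 201 bases centred on the summit, except that of Eno, which is cut to the 133 bases outside annotated exons. The regions are chrX:15867893-15868093 on the plus strand for Gapdh2, and on the minus strand chr3L:6262772-6262972 for Ldh, chr2L:1727881-1728013 for Eno and chr2L:2750341-2750541 for Pgk.
Gapdh2: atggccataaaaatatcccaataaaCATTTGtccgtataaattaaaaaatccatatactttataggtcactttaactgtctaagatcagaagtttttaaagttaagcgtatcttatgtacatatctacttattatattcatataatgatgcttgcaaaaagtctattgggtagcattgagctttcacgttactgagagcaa
Ldh: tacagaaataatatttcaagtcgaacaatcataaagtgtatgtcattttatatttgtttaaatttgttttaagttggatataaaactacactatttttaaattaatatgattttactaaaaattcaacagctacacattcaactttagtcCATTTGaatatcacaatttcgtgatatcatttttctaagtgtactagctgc
Eno: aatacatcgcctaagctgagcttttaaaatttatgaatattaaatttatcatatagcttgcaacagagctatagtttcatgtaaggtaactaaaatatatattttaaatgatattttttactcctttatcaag
Pgk: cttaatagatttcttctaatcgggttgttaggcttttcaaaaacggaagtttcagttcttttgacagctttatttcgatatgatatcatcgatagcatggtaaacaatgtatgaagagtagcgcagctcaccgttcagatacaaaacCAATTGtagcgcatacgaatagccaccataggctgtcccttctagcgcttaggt

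The E-box of Gapdh2 and that of Ldh had the same letters, CATTTG, which read CAAATG on the other strand. The Pgk run held CAATTG, and the Eno run held no E-box. None of the 171 overlapping 31-base words in each 201-base window occurred elsewhere on the chromosome arms, so these windows are single-copy at that word length.

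Gapdh2 (FBgn0001092, chrX:15868145-15869661, plus strand) carried the strongest peak of the group. It encodes a glyceraldehyde-3-phosphate dehydrogenase, the enzyme of the first oxidation step. The peak at chrX:15867789-15868175 was intergenic, with its summit 152 bp upstream of the most 5′ TSS, and had a signal of 2927.6 and rank 9 of 4336. The ranks were 8, 8 and 12 in replicates 1, 2 and 3, a mean of 9.33 ± 2.31 (SD, n = 3), with signals of 1105.1, 1102.3 and 732.8. The peak was thus near the top of every list, and the replicate summits lay 1 to 10 bp from the pooled one. Signal scales differ between lists, and as a share of the strongest peak in its own list the Gapdh2 signal was 72.0% ± 10.9 (SD, n = 3). A further pooled peak lay 904 bp upstream at rank 19405.

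Gapdh1 (FBgn0001091, chr2R:7791901-7793380, minus strand) encodes the same enzyme and gave no peak in any of the 5 lists. The nearest summit assigned to any gene was 10241 bp from a Gapdh1 TSS in the thresholded set and 4068 bp away in the pooled list. In replicates 1, 2 and 3 it was 4227, 4072 and 1495 bp away. Over the gene spans, 10 of 1450 words of 31 bases from Gapdh1 and 10 of 1487 from Gapdh2 occurred elsewhere, and of the 970 words in the 1000 bp upstream of either gene, 0 did.

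Ldh (FBgn0001258, chr3L:6259105-6262694, minus strand) encodes lactate dehydrogenase, which regenerates the NAD+ that glycolysis consumes. Its leading peak at chr3L:6262730-6263044 was intergenic, with its summit 178 bp upstream of the most 5′ TSS, a signal of 979.9 and rank 182. The replicate ranks were 181, 212 and 204, a mean of 199 ± 16.1 (SD, n = 3), with signals of 373.3, 363.6 and 237.4. As a share of the mean rank the SD was 8.09%, against 24.7% for Gapdh2, 94.3% for Eno and 15.8% for the leading Pgk peak. In places, the SD of Gapdh2 was the smaller. Ldh had 7 pooled peaks, and the next strongest, 1882 bp upstream, had a signal of 145.9 and rank 4654. That peak ranked 3732, 15833 and 6143 in the replicates, so its place moved far more between replicates than that of the leading peak.

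Eno (FBgn0000579, chr2L:1724768-1729636, minus strand) encodes enolase, the enzyme of the step before pyruvate kinase. The thresholded peak at chr2L:1727757-1728078 had its summit in an intron, 196 bp upstream of an internal TSS, with a signal of 772.4 and rank 317. The replicate ranks were 319, 153 and 1055, a mean of 509 ± 480.1 (SD, n = 3), with signals of 294, 405.1 and 96.4. Replicate 3 was the weakest, and its summit lay 91 bp from the pooled one, against 10 and 39 bp in replicates 1 and 2. A second pooled peak at rank 6507 lay 49 bp upstream of the most 5′ TSS, where a TSS of CG31937 is 202 bp away, and it ranked 4087, 9425 and 15514 in the replicates. The stronger of the Eno peaks was thus at the internal start and not at the most 5′ start.

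Pgk (FBgn0250906, chr2L:2746880-2753068, minus strand) encodes phosphoglycerate kinase, which makes the first ATP of the pathway. It had 4 thresholded peaks, each nearest to a different one of its 5 annotated TSSs, a number reached or passed by 190 genes, 7.19% of those with a thresholded peak. The strongest, at chr2L:2750365-2750524, lay in an intron 294 bp upstream of an internal TSS, with a signal of 417.1 and rank 989. The replicate ranks there were 927, 1106 and 809, a mean of 947 ± 149.5 (SD, n = 3), with signals of 169.5, 158.2 and 112.2. The summit was at the same base in the pool and in replicates 2 and 3 and 8 bp away in replicate 1.

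A pair of neighbouring Pgk peaks lay in introns further 3′. The stronger, at chr2L:2748727-2748952 and 309 bp upstream of a TSS, had a signal of 389.8 and rank 1107. Its matches ranked 498, 1043 and 1654 in replicates 1, 2 and 3, with summits 128, 8 and 139 bp from the pooled one. The replicate 3 summit, at base 2748657, lay outside the pooled peak, so a single site in all replicates is not shown. The weaker, 306 bp downstream of a TSS, had a signal of 227.8 and rank 2439, and ranked 498 and 2355 in replicates 1 and 2 with none in replicate 3. In replicate 1 a single peak matched both, so these are not separate measurements there. The remaining peak, at chr2L:2752807-2753182 in the 5′ untranslated region, lay 73 bp downstream of the most 5′ TSS and 195 bp from a TSS of Bacc, with a signal of 169.6 and rank 3774. It ranked 2797, 3677 and 9561, and so was outside the strongest 4336 of replicate 3. Bacc also held a peak inside the Pgk span with rank 1140 and another with rank 3751, and these were not counted for Pgk.

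**Figure D1:**
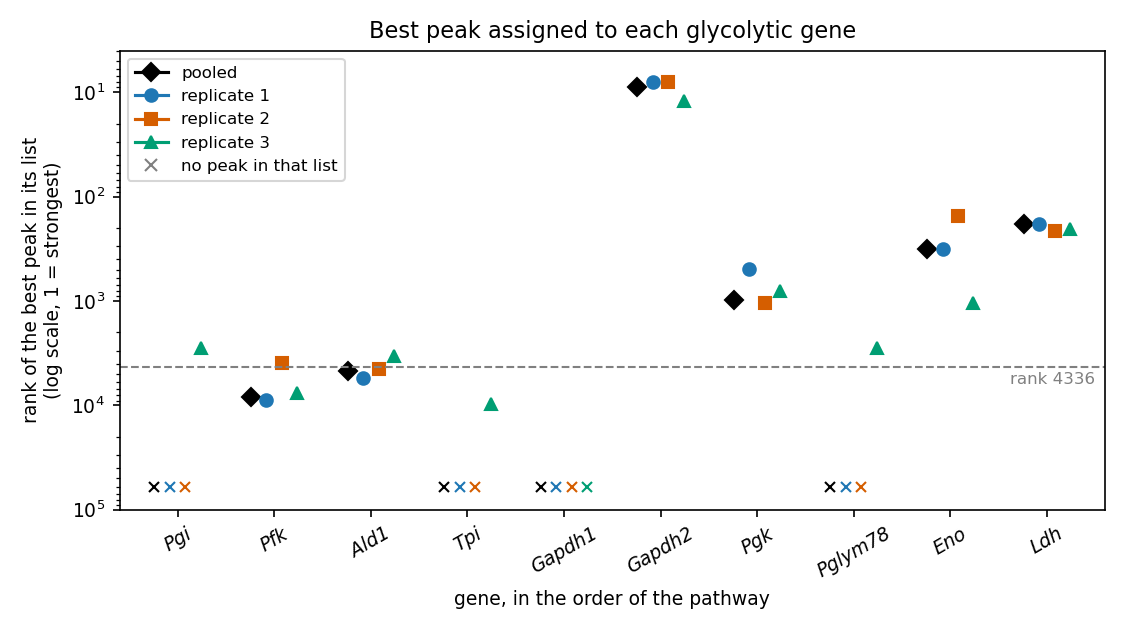
Rank of the best peak assigned to each gene in the pooled list and in the 3 replicate lists, on a log scale with the strongest at the top. Crosses mark a gene with no peak in that list and the dashed line is rank 4336, the size of the thresholded set. Gapdh2 sits between ranks 8 and 12 in every list, and Pgi, Tpi and Pglym78 have a point from replicate 3 only.

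The best ranks of the 4 genes in the thresholded set had a median of 249.5, against 1729 over all 2641 genes with a thresholded peak. Of those 2641 genes, 290, or 11.0%, had a best rank of 317 or better, as Gapdh2, Ldh and Eno did. The cutoff of 317 is the rank of Eno itself, and the genes were chosen with their ranks known. Nothing is therefore read from either comparison. In the 3 replicates, the ranks of Gapdh2 did not overlap with those of any other of these genes. The ranks of Ldh, 181 to 212, lay inside the range of Eno, 153 to 1055, so their order did not hold in every replicate. Of the 7 thresholded peaks, 5 were among the strongest 4336 of all 3 replicates, compared with 2141 of the 4336, or 49.4%. Among the 5 was the Pgk peak of rank 1107, matched only 128 and 139 bp away in replicates 1 and 3. Since the ranks were known when the genes were chosen, nothing is read from this share either.

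**Figure D2:**
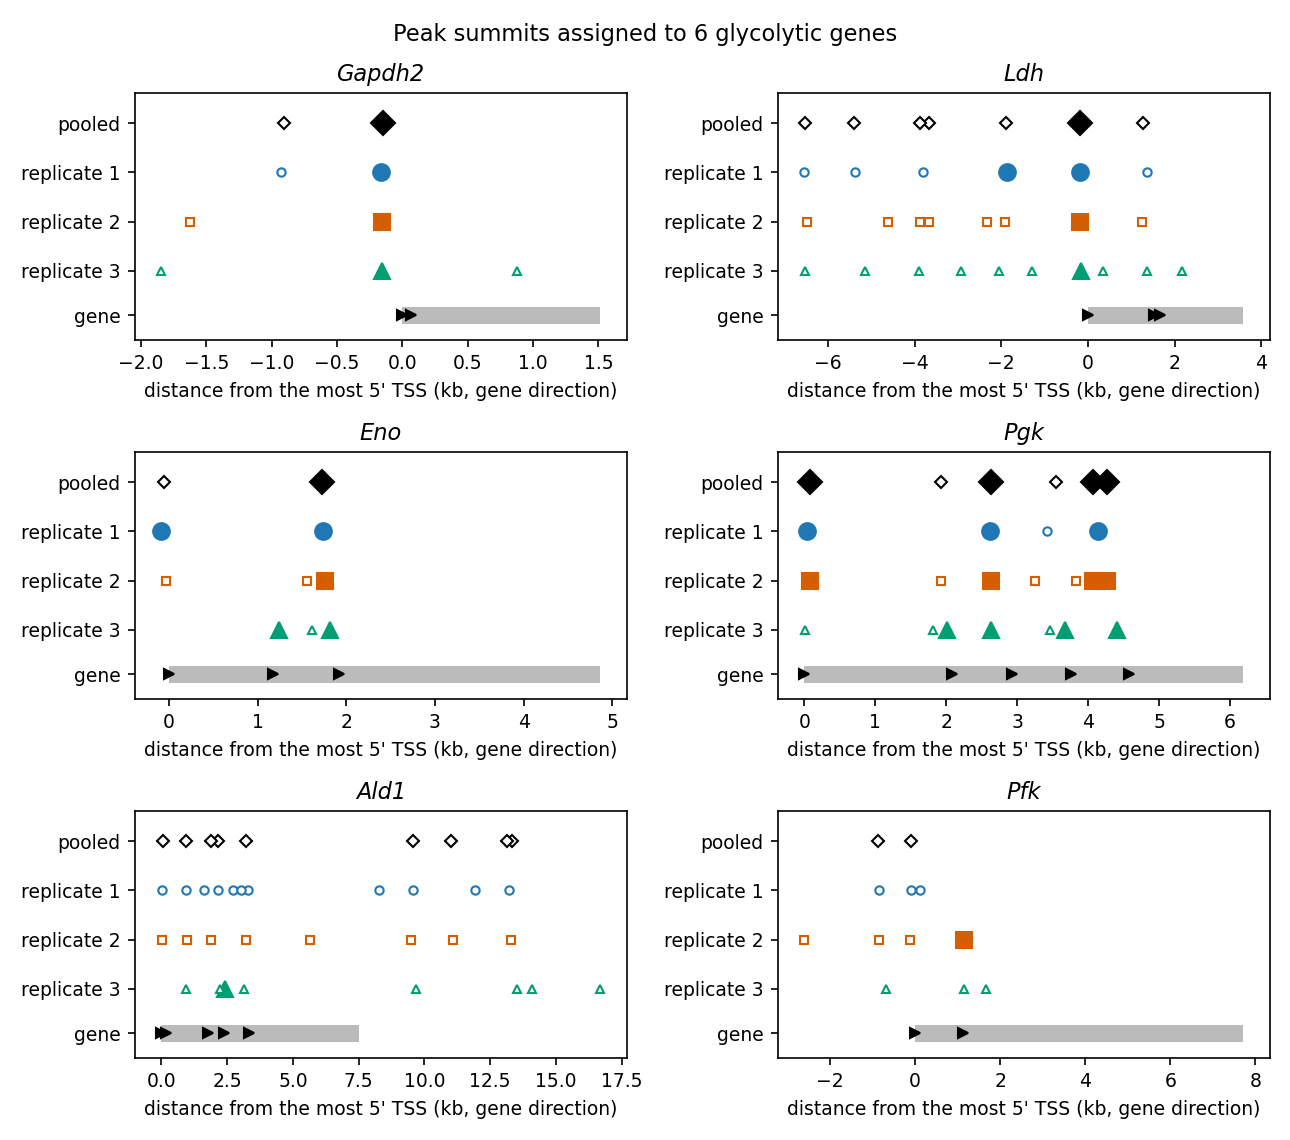
Position of every summit assigned to 6 of the genes, in kb from the most 5′ TSS in the direction of the gene, in the pooled list and each replicate. Large filled symbols are peaks with rank 4336 or better in their own list, small open symbols are weaker peaks, grey bars are the gene spans and arrowheads the annotated TSSs. Gapdh2 has a single strong summit just upstream of its start, while Pgk has strong summits along its span.

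In the pooled list of 30000 peaks, 6 of the 10 genes had a peak, where 48.2% of all genes did, and all 6 had a summit within 500 bp of a TSS, where 37.8% of all genes did. The additional genes were Ald1 and Pfk. The same 6 genes had a peak in replicate 1, where 52.3% of all genes did, and in replicate 2, where 53.0% did. In these long lists a peak at a gene is common, so the rank of each peak is given beside its presence.

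Ald1 (FBgn0000064, chr3R:26254069-26261591, minus strand) encodes fructose-bisphosphate aldolase, which splits the phosphorylated sugar into triose phosphates. It had 9 pooled peaks, the strongest in an intron 749 bp downstream of a TSS, with a signal of 145.0 and rank 4693. That site ranked 5487, 4531 and 11626 in the replicates. Its strongest peak in replicate 3 was another one, 36 bp downstream of a TSS, with rank 3368. Ald1 was just outside the threshold: the lowest signal in the thresholded set was 153.4, the weakest peak of the 10 genes inside it was the Pgk peak in the 5′ untranslated region at 169.6, and the strongest outside were those of Ldh at 145.9 and Ald1 at 145.0.

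Pfk (FBgn0003071, chr2R:10109740-10117457, plus strand) encodes phosphofructokinase, the main regulated step. It had 2 pooled peaks, at rank 8346, 861 bp upstream of the first TSS, and at rank 10015, 104 bp upstream. Both summits lay in the annotated 3′ untranslated region of the neighbouring gene 14-3-3zeta, so assignment to Pfk rests on distance alone. The first ranked 8802, 8511 and 12406 in the replicates, and the other 9151 and 9285 with none in replicate 3. A peak 10 bp downstream of the second Pfk TSS had rank 3889 in replicate 2 and a peak 22 bp downstream of it had rank 11667 in replicate 3, whose best Pfk peak was at rank 7659, 545 bp downstream of the same TSS.

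Replicate 3 gave a peak at 9 of the 10 genes, where 57.0% of all genes had one. Pgi, Pglym78 and Tpi had a peak within 500 bp of a TSS in replicate 3 and none in replicates 1 and 2, a pattern found in 1320 genes, or 9.47% of all. Pgi (FBgn0003074, chr2R:8910900-8914069, minus strand), which encodes glucose-6-phosphate isomerase, had a signal of 52.4 at rank 2830, 68 bp upstream of a TSS, and the nearest pooled summit was 37148 bp away. Pglym78 (FBgn0014869, chr3R:29148248-29149901, plus strand), which encodes a phosphoglycerate mutase, had a signal of 52.2 at rank 2844, 62 bp downstream of a TSS, with the nearest pooled summit 9024 bp away. Tpi (FBgn0086355, chr3R:30132981-30134599, minus strand), which encodes triose-phosphate isomerase, had its best peak at rank 9711, 277 bp upstream, and the nearest pooled summit was 16669 bp away. Without replicate 3 these 3 genes had no peak in any list, and the part of that replicate's difference in this result was not tested.

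The genes around the pathway were read from 8 lists, of which 67 of 68 symbols were matched. Of the 67, 23, or 34.3%, had a thresholded peak, where 18.9% of all protein-coding genes did. That share applies to every list below. The lists were chosen with earlier results of these data known, so nothing is read from an excess. Among other glycolytic steps and paralogs, 2 of 8 did, Hex-A and Pfrx. Hex-A, the hexokinase gene at the entry of the pathway, had a peak 198 bp upstream with a signal of 1019.8 and rank 164, and ranked 174, 107 and 472 in the replicates, close to Ldh. Pfrx, which encodes the enzyme that sets the level of the phosphofructokinase activator fructose-2,6-bisphosphate, had rank 2326. Of the genes of glycogen and trehalose, 4 of 9 had a peak: Glyp, glycogen phosphorylase, at rank 213, Pgm2b at rank 2183, the glycogen synthase gene Glys at rank 2586 and the trehalase gene Treh at rank 3895. Sugar transport gave 3 of 7, the trehalose transporter gene Tret1-1 at rank 1817, the glucose transporter gene Glut1 at rank 2079 and sut1 at rank 2153.

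Of the 8 regulators, 6 had a thresholded peak, where 18.9% of all protein-coding genes did. The strongest was that of foxo, a forkhead factor under insulin signalling, at rank 124, 3368 bp upstream, with replicate ranks of 130, 166 and 102. The hypoxia factor gene sima had rank 188, 1615 bp upstream, and replicate ranks of 204, 225 and 146, while its partner tgo had rank 1818, 5118 bp upstream, and the prolyl hydroxylase gene Hph rank 2583, 144 bp upstream. ERR had a peak at rank 2980, 265 bp upstream, with replicate ranks of 2776, 3703 and 5179, and is named here after its values were seen.

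Of the genes of pyruvate, lactate and glycerol phosphate, 2 of 11, or 18.2%, had a thresholded peak, close to the 18.9% of all genes. They were PCB, pyruvate carboxylase, at rank 1132 and muc, a subunit of pyruvate dehydrogenase, at rank 3759. In the tricarboxylic acid cycle 3 of 15 had one, or 20.0%, also close to that share. They were the isocitrate dehydrogenase subunit gene Idh3g at rank 139, the citrate synthase gene kdn at rank 614 and the oxoglutarate dehydrogenase gene Ogdh at rank 1075. Gluconeogenesis gave 2 of 4, Pepck2 at rank 1933 and fbp at rank 3316. The pentose phosphate pathway gave 1 of 5, or 20.0%, the glucose-6-phosphate dehydrogenase gene Zw at rank 594. The leading summits of Pgm2b, Tret1-1, Glut1, kdn, Pepck2 and Zw lay 1095 to 4096 bp from a TSS. Those of the regulators sima, foxo and tgo lay 1615, 3368 and 5118 bp away. In 14 genes of the lists the leading summit was within 500 bp of a TSS, as in the 4 glycolytic genes.

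**Figure D3:**
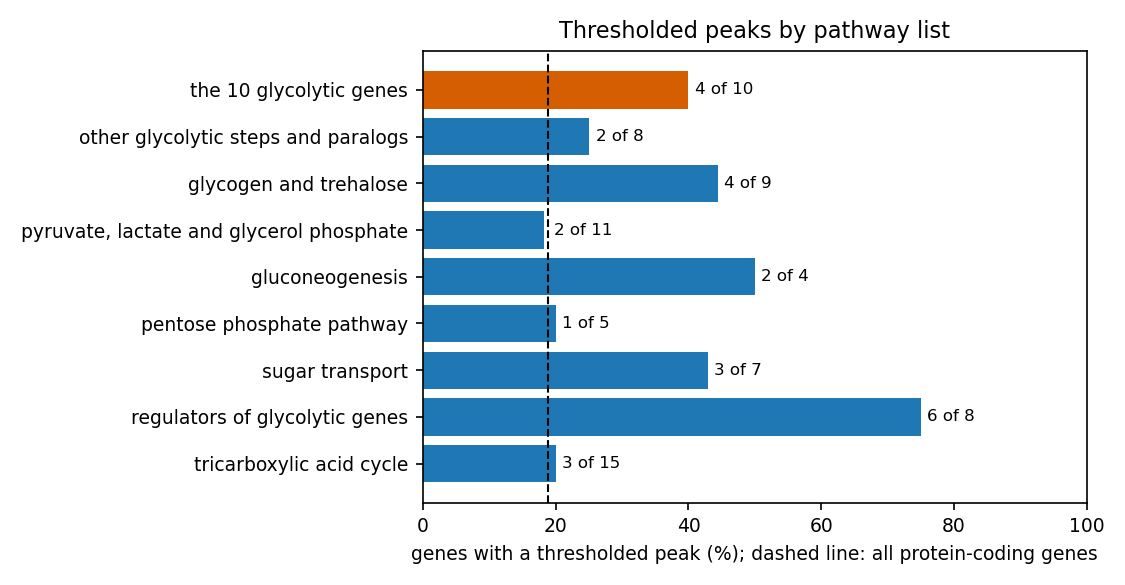
Percent of the genes of each pathway list with a thresholded peak, with counts beside the bars. The dashed line is the share of all protein-coding genes, 18.9%. The 10 glycolytic genes, at 4 of 10, lie between sugar transport, at 3 of 7, and other glycolytic steps, at 2 of 8, and the lists are too small for their shares to be ordered.

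The sequence at the 7 summits was compared with that at all thresholded peaks, within 100 bp to each side and on both strands. An E-box CANNTG was present at 6 of 7, compared with 59.8% of all thresholded peaks and 57.5% of those near a TSS. The form CAAATG was present at 4 of 7, at Gapdh2, Ldh and the Pgk peaks of ranks 2439 and 3774, compared with 18.8% of all. The E-boxes began 47 to 79 bp from the summit in either direction, and within 50 bp 0 of 7 summits held one, compared with 33.8% of all. Of all 19253 windows from 250 bp before to 50 bp after a TSS, 77.9% held CANNTG and 25.6% CAAATG.

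The TATA box letters, TATAAA, were present at 3 of 7 summits, compared with 39.3% of all, and at 3 of 7 within 50 bp, compared with 25.6%. GAGAG, the GAGA factor letters, was at 1 of 7, compared with 23.2%, and ACGTG, the core of the hypoxia response element, was at 1 of 7, compared with 13.0%, both at Gapdh2. Within 150 bp the GAGA factor letters were at 5 of 7, compared with 36.8%. Of the 7 peaks, 4 belong to Pgk, and at 150 bp the windows of its peaks of ranks 1107 and 2439 overlap. The same letters can thus count for both, and the 7 are not separate sites. TATCGATA, the DNA replication-related element, was at 0 of 7, compared with 1.96%, and AAGGTCA, the letters an estrogen-related receptor binds, was at 0 of 7, compared with 1.04%. In the windows from 250 bp before to 50 bp after a TSS, AAGGTCA was found in 4 of the 10 genes, Ald1, Tpi, Pgk and Pglym78, compared with 2.83% of all genes. The TATA box letters were found there in 7 of 10 genes, compared with 51.3%, the GAGA factor letters in 5 of 10, compared with 36.4%, and an E-box in 9 of 10, compared with 82.0%. The 10 genes had 29 such windows and all 13945 genes had 19253, so more DNA per gene was searched in the 10. By window, AAGGTCA was in 5 of the 29, compared with 2.1% of all, and the TATA box letters in 11, compared with 42.3%. The GAGA factor letters were in 10 of the 29, compared with 33.2%, and an E-box in 24, compared with 77.9%. All of these are matches of letters and not sites of a factor.

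All 7 summits lay in DNA of lower GC content than their flanks, taken 500 bp away with both sides together. Over 101 bp at the summit the GC content was 26.7% at Gapdh2, 20.8% at Ldh, 25.7% at Eno and 36.6% at the leading Pgk peak, compared with 41.1%, 55.4%, 35.1% and 52.5% in the flanks. Over all thresholded peaks it was 32.4% ± 9.62 at the summit and 42.6% ± 7.48 in the flanks (SD over 4336 peaks), so a lower value at the summit is common to the set. The lowest of the 7 was the Pgk peak of rank 2439, at 13.9% with flanks of 59.4%. At Gapdh2 the upstream side at that distance was not higher than the summit. In windows of 51 bp the GC content there was 27.45% at 500 bp upstream, 29.41% at the summit and 60.78% at 500 bp downstream.

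**Figure D4:**
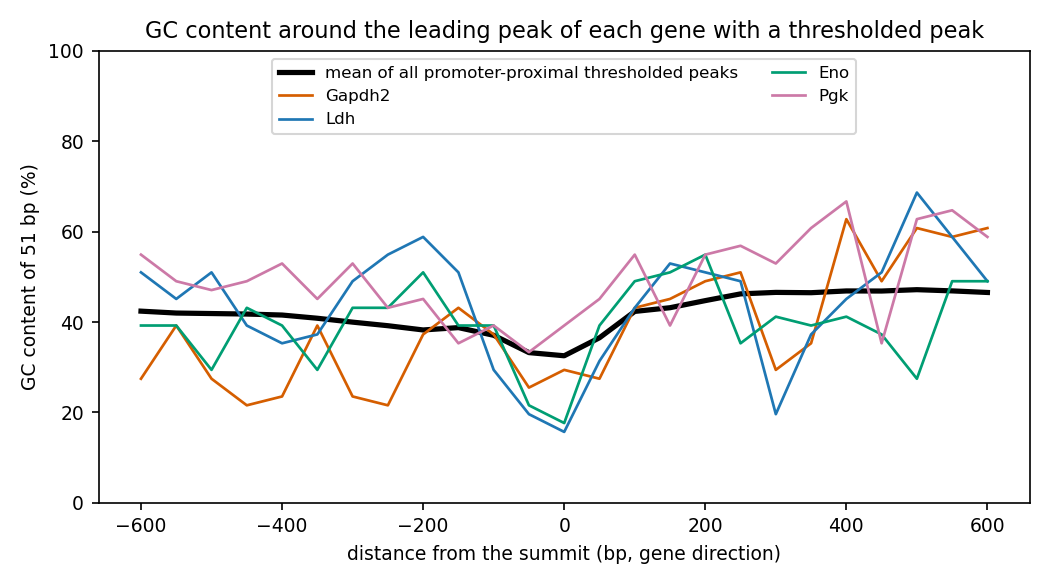
GC content in windows of 51 bp by distance from the leading summit of Gapdh2, Ldh, Eno and Pgk, in the direction of the gene, with the mean of all 1640 promoter-proximal thresholded peaks in black. At the summit Ldh, Eno and Gapdh2, at 29.4%, lie below the mean of 32.5% and Pgk lies above it. Gapdh2 is lower still upstream, at 21.6% at 250 and 450 bp.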

How the data were processed

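Chromatin immunoprecipitation with sequencing of tap-eGFP was made in 3 biological replicates, in dm6 per the labels. For every peak the deposited lists hold the caller's signal and, in the narrowPeak layout, a q-value as −log10. Per the notes deposited with the samples, each replicate was set against 1 control, the replicates were also pooled, and reproducible peaks were kept as the thresholded set with IDR (irreproducible discovery rate). Which aligner, caller and IDR cutoff were used is not given in the sources used here. Depth is unknown, so no counting interval is given. Since signal scales differ between lists, ranks within a list were used, and 3243 thresholded peaks were tied at the highest −log10 q.

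Summits were assigned to the nearest protein-coding TSS of Ensembl release 115 (FlyBase release 6.54) and sequence came from the RefSeq copy of the assembly, with Python 3.11.15, pandas 2.3.3, numpy 2.4.6 and matplotlib 3.10.9. The assignment code was tested on simulated data. Summits within 200 bp were matched between lists. The 10 genes and the 8 pathway lists were chosen with earlier results of these data known. All 10 genes are named, and of each list at most 4 genes with a thresholded peak, by signal. The exception is ERR, which was named in addition after its values were seen. Tkt was not matched. No test was run, since there is 1 group and the genes were chosen on these values. Alternatives were other TSS windows, other rules of assignment, the 2168 strongest peaks of the set, other summit distances and motif windows, ranking by q-value and leaving out each replicate.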

Additional observations from a re-analysis of the deposited data

How the results depend on the processing

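The count of glycolytic genes with a thresholded peak was 4 under all 17 alternatives run for it, its promoter form and its replicate form. Distance limits of 500, 1000 and 5000 bp, the strongest 2168 by signal and match distances of 100 and 500 bp could not change the count. The leading summits lay 152 to 294 bp from a TSS, ranked 989 or better and were matched within 91 bp. For the other genes the nearest thresholded summit was 5953 bp or more from a TSS. Leaving out each replicate in turn, with a match among the strongest 4336 of the other replicates required, gave 4 to 4. The thresholded set still drew on all 3 replicates there. The leading peak of each gene was among the strongest 4336 of all 3, so that count could not fall. Under each alternative the genes were Gapdh2, Pgk, Eno and Ldh. With a TSS window of 200 bp, Pgk stayed only through its peak of rank 3774, 73 bp from a TSS, which ranked 9561 in replicate 3. Eno stayed there with its summit 196 bp from a TSS. Taking the strongest 2168 by q-value repeats the ranking by signal, since 3243 peaks are tied at the highest value, so that alternative and the q-value ranks of these 4 genes could not differ. Of 32 alternatives for single genes, lists and motifs, 24 stayed within 1.5 times the count or within 1 SD of the replicate ranks and 8 moved. The 6 regulators near a TSS are not the same genes, as bigmax, whose TSS is within 500 bp of a summit nearer to another gene, takes the place of tgo. In the same way Fum1 takes the place of kdn among the 3 genes of the tricarboxylic acid cycle. The best pooled rank of Ald1 went from 4693 to 7624 when only summits within 500 bp of a TSS were used. With the same rule gluconeogenesis went from 2 to 1 genes, the pentose phosphate pathway from 1 to 0 and sugar transport from 3 to 1. Within 50 bp of the summit CANNTG went from 6 to 0 of the 7 peaks and GAGAG and ACGTG from 1 to 0, and within 150 bp GAGAG went from 1 to 5, where 36.8% of all thresholded peaks hold it. These alternatives by construction search less or more DNA, and at 150 bp the windows of the neighbouring Pgk pair overlap. Ranks of weak peaks are limited by the unknown depth. No paired analysis was possible because there was 1 group.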

Other observations

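Where the leading promoter peak sat was looked at after the values were seen, with the edges of the window chosen from them. In 3 of the 4 glycolytic genes with a thresholded peak, Gapdh2, Ldh and Eno, its summit lay 150 to 200 bp upstream of the TSS. The same held for 5 of the 14 genes of the pathway lists whose leading peak was within 500 bp of a TSS, namely Hex-A, Glyp, Glys, Treh and sut1, and for 175 of all 1261 such genes, or 13.9%. With a window of 100 to 250 bp it was 3 of 4, 7 of 14 and 41.6% of all, so the contrast depends on the narrow window. No test was run.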
